A study of Mus musculus with 4 samples.

Results

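The cytosolic ribosomal proteins were described as one module: every gene on the array whose symbol is Rpl or Rps followed by a digit, or Rplp followed by a digit, leaving out the Rps6k kinases. This gave 81 genes of 27962 gene names, measured by 135 probes. Of the 81 genes, 49 carry large-subunit names and 32 small-subunit names. Of these, 75 are canonical subunit genes, and the other names belong to the paralogs Rpl22l1, Rpl3l, Rpl36al, Rpl7l1 and Rps27l and to the binding protein Rps19bp1. The rule itself uses symbols and no measured value.

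The samples were livers of C57BL/6J mice, an inbred laboratory strain kept on standard chow. The 4 groups were food-deprived (FD) mothers, control mothers, FD fetuses and control fetuses, with no other allele or agent named. Each of the 4 two-colour Agilent arrays, all on 1 slide, carried FD RNA in one dye and control RNA in the other, with the dyes swapped between the arrays of a comparison. The design text describes RNA pooled from 5 to 10 biological replicates per condition and dye-swapped, while the titles number the arrays of a comparison as pooled samples 1 and 2. Whether both arrays carry the same pools is not settled, so the pair was counted as 1 replicate and no significance test was run. How long food was withheld, the gestational stage and the sex of the fetuses are unstated in the labels. Below, an array is named by the dye of its FD RNA, and ± gives the SD between the 2 arrays, which is technical if they share their pools. Pooled sample 1 had FD in Cy5 and pooled sample 2 had FD in Cy3 throughout, so a difference between dyes and a difference between pooled samples cannot be told apart. In whole liver, fewer cells of a type and less RNA per cell cannot be told apart.

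The ribosome is built from a small subunit, which reads the mRNA, and a large subunit, which joins the amino acids. Its protein genes are expressed at high and roughly balanced levels in growing cells, and most of their mRNAs begin with a 5′ terminal oligopyrimidine (TOP) tract. Through this tract their translation is held back when mTOR, a nutrient-sensing kinase, is inactive, with the RNA-binding protein LARP1 as mediator. Control of this class therefore acts largely on translation, and an array of total RNA does not read that step. Fetal liver is also the main site of blood formation before birth.

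The start sites of members on which the results below turn are shown first, because the class is known for its TOP tract. Each line gives 30 bases before the annotated start and 20 bases from it on the gene's strand, from RefSeq on build GRCm38.p6. Capitals mark a run with at least 8 C or T within 10 bases of the start. The 9 lines with such a run come first and the 7 without one after them, which is not the proportion among all members given below.
Rps9, chr7:3704011-3704060, plus strand: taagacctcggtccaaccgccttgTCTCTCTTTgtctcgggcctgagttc
Rps27, chr3:90213629-90213678, minus strand: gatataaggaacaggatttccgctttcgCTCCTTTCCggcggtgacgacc
Rps15a, chr7:118116128-118116177, minus strand: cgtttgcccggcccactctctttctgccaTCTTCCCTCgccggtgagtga
Rps6, chr4:86857348-86857397, minus strand: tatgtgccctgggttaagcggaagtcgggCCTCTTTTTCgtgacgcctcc
Rpl14, chr9:120571487-120571536, plus strand: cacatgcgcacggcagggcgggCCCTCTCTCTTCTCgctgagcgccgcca
Rpl15, chr14:18270967-18271016, minus strand: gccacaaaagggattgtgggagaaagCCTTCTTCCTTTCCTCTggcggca
Rpl27a, chr7:109519165-109519214, plus strand: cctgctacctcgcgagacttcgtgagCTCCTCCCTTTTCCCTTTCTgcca
Rpl35, chr2:39005112-39005161, minus strand: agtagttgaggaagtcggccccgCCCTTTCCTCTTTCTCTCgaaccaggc
Rplp2, chr7:141447621-141447670, plus strand: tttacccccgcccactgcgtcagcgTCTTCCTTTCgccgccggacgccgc
Rplp0, chr5:115559437-115559486, plus strand: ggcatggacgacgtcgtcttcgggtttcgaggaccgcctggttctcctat
Rpl5, chr5:107900498-107900547, plus strand: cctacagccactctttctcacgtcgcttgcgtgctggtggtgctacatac
Rpl31, chr1:39367821-39367870, plus strand: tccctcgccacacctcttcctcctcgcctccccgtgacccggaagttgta
Rpl41, chr10:128549149-128549198, minus strand: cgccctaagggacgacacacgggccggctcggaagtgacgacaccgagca
Rps19, chr7:24884562-24884611, plus strand: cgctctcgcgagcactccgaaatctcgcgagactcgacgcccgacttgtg
Rps19, chr7:24884646-24884695, plus strand: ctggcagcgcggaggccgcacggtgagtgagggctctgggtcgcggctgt
Rps19, chr7:24884883-24884932, plus strand: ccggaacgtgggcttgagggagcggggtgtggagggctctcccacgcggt

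The run was 9 bases long at Rps9, Rps27 and Rps15a and 20 bases long at Rpl27a. No run of at least 8 was found within 10 bases of the annotated starts of Rplp0, Rpl5, Rpl31 and Rpl41 or of any of the 3 of Rps19. The lines of Rpl5 and Rpl31 do hold such a run further upstream. It is unmarked because it lies wholly or partly outside those 10 bases. RefSeq windows of 300 bases were matched by symbol for 60 of the 81 genes, in 71 windows. A run of at least 8 C or T on the gene's strand, within 10 bases of the start, was found in 21 member windows (29.6%) and in 7.84% of the 32780 other windows. On the opposite strand such a run was found in 2.82% of the member windows and 8.90% of the others. The windows of canonical large-subunit and small-subunit genes held the run at about the same share, 31.6% and 32%. CCGGAAG, the core motif of ETS factors, stood on either strand in 32.4% of the member windows and 8.81% of the others. AAGATGG, the core motif of YY1, stood on either strand in 16.9% of the member windows and 6.31% of the others. Both motifs were searched over all 300 bases, and a match of one can share its AAG with a match of the other. The runs and motifs are matches of letters, and the mitochondrial ribosomal protein windows, searched in the same way, held the pyrimidine run in 6.67%, CCGGAAG in 34.7% and AAGATGG in 17.3%.

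The member probes were among the brightest on the array. By mean intensity over all arrays, 109 of the 135 probes (80.7%) lay in the top 10% of gene probes, and their median lay at the 98.7th percentile. No spot was saturated. On bright spots the raw ratio changed sign between the dye orientations, and the size of this grew with intensity. Before normalisation, members of the brightest 10% of measured genes had median log2 ratios of FD over control of 2.27 with FD in Cy5 and -2.00 with FD in Cy3 in mothers. In fetuses the same medians were 2.24 and -2.16. Loess normalisation, which removes such a trend from each array, left 0.20 and 0.12 in mothers and 0.23 and -0.15 in fetuses. For the other genes of the brightest 10% it left -0.03 and -0.01 in mothers and 0.02 and 0.05 in fetuses. The maternal members therefore kept a small value of the same sign on both arrays, and the fetal members kept values of opposite sign.

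**Figure D1:**
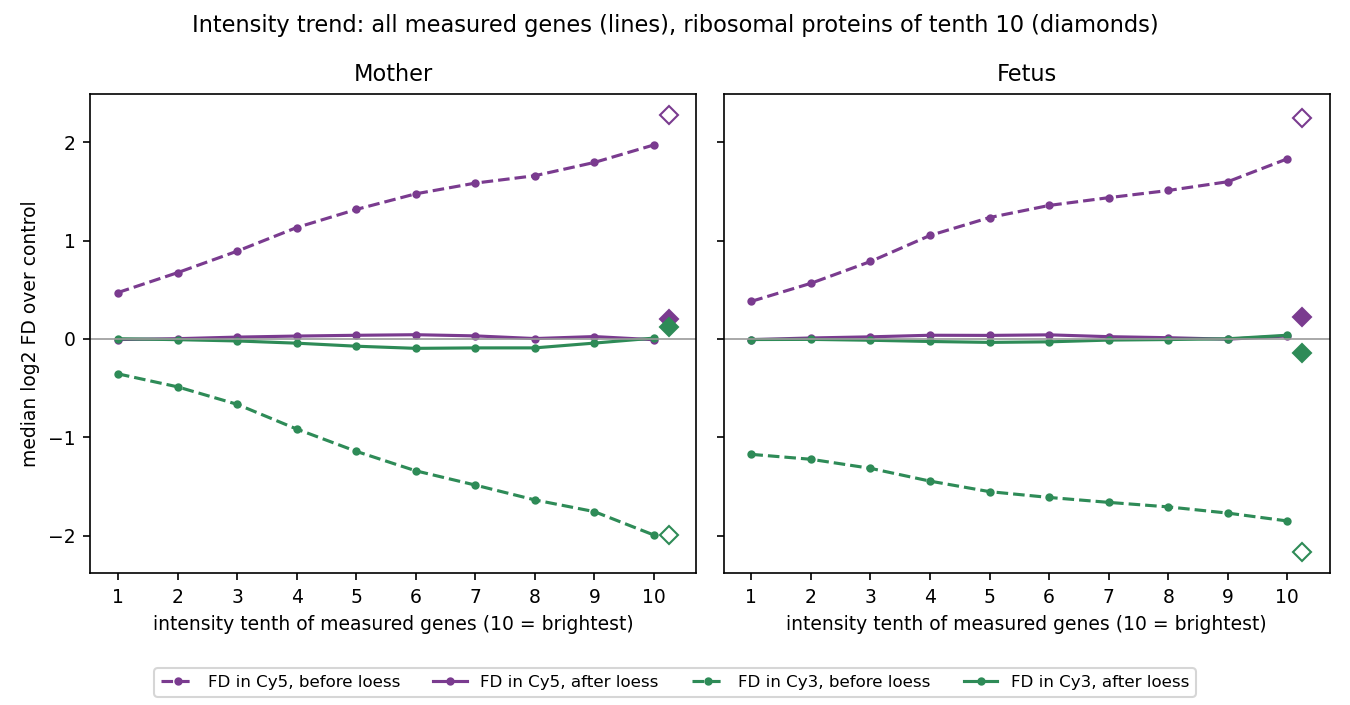
Median log2 ratio of FD over control (y axis) in 10 intensity bins of measured genes (x axis), in mothers and fetuses, before loess (dashed) and after it (solid), with purple for FD in Cy5 and green for FD in Cy3. Diamonds are the ribosomal proteins of the brightest bin, open before loess and filled after it: the filled ones sit at 0.20 and 0.12 in mothers and on opposite sides of 0, at 0.23 and -0.15, in fetuses.

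Members and other genes of like brightness could be set beside each other within narrower ranges. At log2 intensities of 14 to 16, the 43 maternal members had a median of 0.19, and the 221 other genes a median of 0.03. At the same brightness in fetuses, the 40 members had array medians of 0.32 with FD in Cy5 and -0.19 with FD in Cy3. The 217 other genes there had array medians of 0.25 and -0.01, so the positive value with FD in Cy5 was shared by other genes of that brightness. At intensities of 13 to 14, the 20 maternal members had a median of 0.16 against -0.05 for 339 other genes. The maternal members thus lay above other genes of the same brightness in both ranges, by under 0.25 on the log2 scale. These are descriptions of these arrays.

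In maternal liver the ribosomal protein genes stood slightly higher after food deprivation. The median log2 ratio of the 79 measured members was 0.14 ± 0.04, a 1.1-fold difference, with array medians of 0.17 and 0.11. The median of all 15786 measured genes was -0.01. No member reached a 2-fold change in either direction (mean at least 2-fold, each array at least 1.5-fold), whereas 1.57% of all measured genes were higher and 1.92% lower by that rule, 3.49% in all. By a rule of size for small shifts (mean at least 1.2-fold, each array at least 1.1-fold in the same direction), 16 members rose, or about 1 in 5, beside 12% of all measured genes. By the same rule 2 members fell, beside 15.6% of all measured genes. Both arrays were above 0 for 47 of the 79 members, beside 32.7% of all genes, and below 0 for 9, beside 38.8%, with the arrays on opposite sides for 23, beside 28.5%. With median centring in place of loess the median was 0.06 and no member passed the 1.2-fold rule in either direction. That setting leaves the dye trend on bright spots, which pushes the 2 arrays to opposite signs. The rule asks for the same direction on both arrays, so the lack of calls there cannot show whether members changed.

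Among small-subunit genes the highest was Rps9, a protein near the mRNA entry channel. Its log2 levels were 13.03 and 13.34 in FD mothers, against 12.69 and 12.71 in control mothers. Both FD values lay above both control values, and the log2 ratio was 0.48 ± 0.20 (1.40-fold). Rps27 had levels of 14.44 and 14.42 in FD mothers, against 13.93 and 13.99 in control mothers. Its ratio of 0.47 ± 0.07 was nearly the same on both arrays, and the groups did not overlap. Rps19, whose human gene is mutated in Diamond-Blackfan anaemia, had levels of 12.69 and 12.63 in FD mothers, against 12.15 and 12.36 in control mothers. Its ratio was 0.41 ± 0.19, again with no overlap. Rps9, Rps27 and Rps19 were named for their high means, which favours such a separation. Its share over all genes is not given, and the arrays were not counted as separate replicates.

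Among the large-subunit genes that rose was Rpl5, which binds 5S rRNA and restrains Mdm2 when ribosome assembly fails. Its levels were 15.16 and 14.9 in FD mothers, against 14.54 and 14.66 in control mothers. Its groups did not overlap, but it too was named for its high mean. Its ratio of 0.43 ± 0.27 differed more between arrays, at 0.63 and 0.24. Others that rose by the 1.2-fold rule were Rpl9, Rps14, Rps18 and Rps28.

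The members that fell were both large-subunit genes. Rpl27a had levels of 11.01 and 11 in FD mothers, against 11.45 and 11.21 in control mothers, with a ratio of -0.33 ± 0.16. A dimmer probe filed under the same symbol had a ratio of 0.28, so the direction of Rpl27a differed between its probes. Rpl31 had levels of 9.10 and 9.05 in FD mothers, against 9.43 and 9.28 in control mothers, with a ratio of -0.28 ± 0.07. The next lowest were Rpl14 at -0.22 ± 0.09, then Rps19bp1 and Rpl7l1, described below, and Rpl21 at -0.16 ± 0.13, and none of the 4 passed the rule. These low members were among the dimmer ones. Of the 8 members outside the top 10% by intensity, 6 were below 0 on both arrays, beside 38.8% of all measured genes. These 6 are the low members just named, so the count restates that choice. Across the 79 members intensity and response had a Pearson correlation of 0.50 and a Spearman correlation of 0.35. The points share arrays and their intensity scale, so this describes the members only.

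The fetal ribosomal proteins had responses of opposite sign on the 2 arrays. With FD in Cy5, 61 of 76 measured members were above 0, with a median of 0.19. With FD in Cy3, 19 of 76 were above 0, with a median of -0.14. The mean of the array pair had a median of 0.05 ± 0.23, where 0 lies well within the spread, and the median of all 17602 measured genes was 0.00. The arrays were on opposite sides of 0 for 50 of 76 members, beside 37.1% of all measured genes, and 46 of these were positive with FD in Cy5. Both arrays were above 0 for 15, beside 32%, and below 0 for 11, beside 30.9%. No member passed the 2-fold rule, whereas 0.483% of all genes were higher and 0.273% lower, 0.756% in all. By the 1.2-fold rule 1 member rose, beside 7.75% of all genes, and none fell, beside 6.02%. When the sign of the array with FD in Cy3 was left unturned, so that differences between dyes or pooled samples add up, 16 members passed the 1.2-fold rule and all were higher in Cy5, beside 1.36% of all genes. In mothers 1 member did so, beside 1.2% of all genes. Across members the arrays correlated at -0.42 in fetuses (Pearson, n = 76; Spearman -0.39) and at 0.29 in mothers (n = 79; Spearman 0.29), while over all measured genes the Pearson values were 0.67 and 0.87. The points share probes, dyes and brightness.

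**Figure D2:**
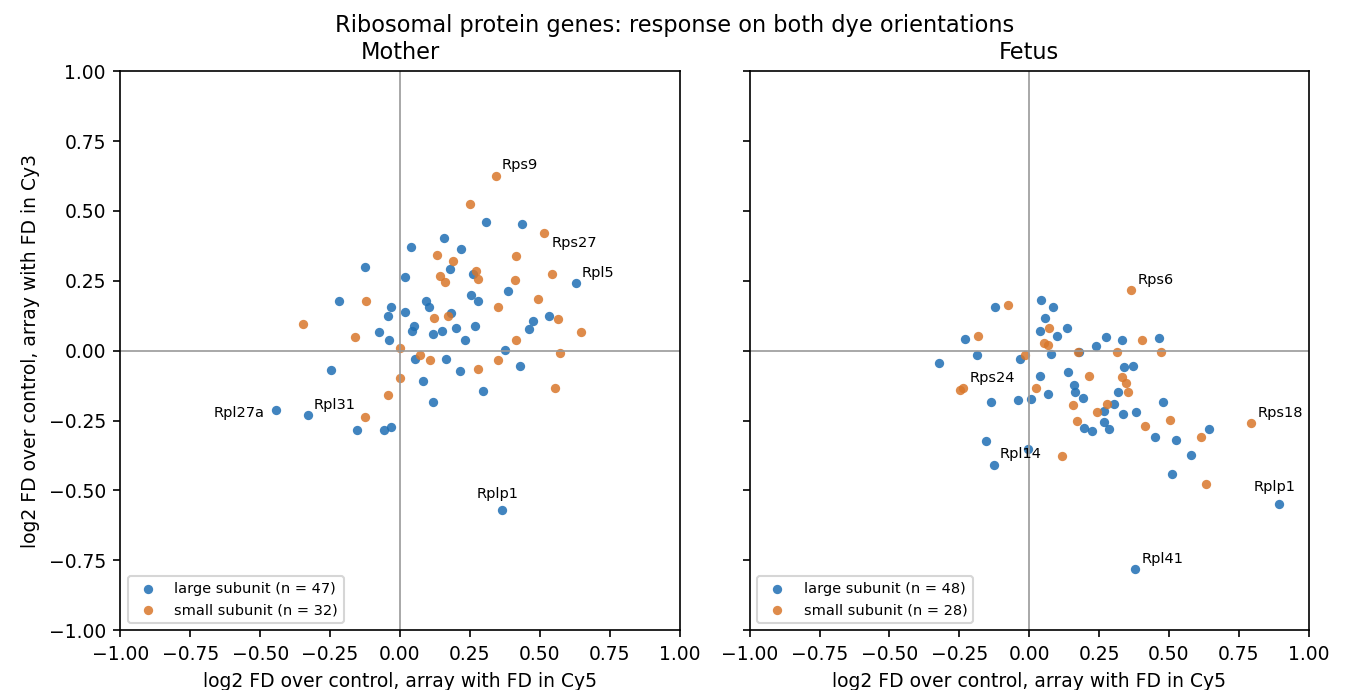
Log2 ratio of FD over control of each ribosomal protein gene on the array with FD in Cy5 (x axis) and on the array with FD in Cy3 (y axis), in mothers (left) and fetuses (right), with large-subunit genes in blue and small-subunit genes in orange. In mothers 47 of 79 points lie above 0 on both axes, and in fetuses 46 of 76 lie in the lower right, positive with FD in Cy5 and negative with FD in Cy3.

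The fetal member that passed the 1.2-fold rule was Rps6, the subunit protein that S6 kinases phosphorylate downstream of mTOR. Its levels were 7.04 and 6.79 in FD fetuses, against 6.68 and 6.57 in control fetuses, a ratio of 0.29 ± 0.11. These values come from a dim probe, because the spot of its bright probe was marked as an outlier on the array with FD in Cy5. In the arrays' own build (mm7) the dim probe lies at chr4:86241021-86241080 and the bright probe apart from it, at chr4:86259708-86259899. Whether the dim probe reads the Rps6 mRNA was not tested, so the call may not belong to Rps6. With FD in Cy3 the bright probe read -0.17, the opposite direction. In mothers the bright probe of Rps6 read 0.41 and 0.04. Rps18 had the next highest fetal mean, 0.27 ± 0.75, from levels of 15.53 and 15.30 in FD fetuses, against 14.73 and 15.56 in control fetuses. The groups overlapped, and its arrays gave 0.79 and -0.26. Rpl41, the smallest ribosomal protein, behaved likewise at 0.38 and -0.78. Among the members on one side of 0 on both arrays were Rps24 at -0.24 and -0.13, Rpl14 at -0.13 and -0.41 and Rps19 at 0.05 and 0.03.

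The stalk proteins Rplp0, Rplp1 and Rplp2 recruit translation factors to the large subunit. Rplp0, the base of the stalk, had ratios of -0.04 and 0.12 in mothers and -0.12 and 0.15 in fetuses, close to 0 in both. Rplp2 had 0.18 and 0.29 in mothers and 0.38 and -0.22 in fetuses. Rplp1, among the brightest members, had 0.36 and -0.57 in mothers and 0.89 and -0.55 in fetuses, so its sign changed between the arrays in both. The files place the Rplp0 probe on chromosome 8 in their own build, whereas RefSeq places the gene on chromosome 5. This was the 1 probe of 133 with a position whose chromosome differed from that of its gene. Ribosomal protein genes have many processed pseudogenes with near-identical sequence, so every probe may also read related transcripts, and that share is uncertain.

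Most of the paralogs and the binding protein had values below those of the canonical genes. Rpl7l1, a large-subunit paralog, had -0.06 and -0.28 in mothers and -0.15 and -0.32 in fetuses. A dimmer probe of Rpl7l1 was above 0 on all 4 arrays, with means of 0.21 in mothers and 0.06 in fetuses, so its direction differed between probes. Rpl36al had -0.03 and -0.27 in mothers and -0.00 and -0.35 in fetuses. Rps19bp1, a nucleolar regulator of Sirt1 that binds Rps19, had -0.12 and -0.24 in mothers and -0.25 and -0.14 in fetuses. By their brightest probes these 3 genes were below 0 on all 4 arrays. The share of all genes with that pattern is not given. Rpl7l1 and Rps19bp1 were among the dimmer members, with log2 intensities of 9.67 and 10.86. The parent genes of the paralogs were at 0.14 in mothers and 0.01 in fetuses for Rpl7 and at -0.00 and 0.11 for Rpl36a, and Rps19, the partner of Rps19bp1, was at 0.41 and 0.04. None of the 3 passed the 1.2-fold rule. Rpl22l1, the paralog of Rpl22, had 0.02 and 0.26 in mothers and -0.14 and -0.18 in fetuses. Rps27l, a p53 target in human cells, had -0.04 and -0.16 in mothers and no fetal value. Rpl3l, a muscle paralog of Rpl3, was at 0.05 in fetuses and not well above background in mothers. The others without a value had a spot marked as an outlier on 1 array: Rpl3, Rps10, Rps16, Rps27a and Rps27l in fetuses and Rpl18 in mothers.

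Small-subunit genes stood above large-subunit genes in mothers, by less than the spread among the genes. The maternal median was 0.11 for 47 large-subunit genes and 0.22 for 32 small-subunit genes, and the large minus small difference was -0.11 ± 0.06. The difference was -0.11 with FD in Cy5 and -0.03 with FD in Cy3. By the 1.2-fold rule 7 of the 47 large-subunit and 9 of the 32 small-subunit genes rose, beside 12% of all measured genes. The large-subunit count is near that share. By the same rule 2 large-subunit genes fell, beside 15.6% of all measured genes. With the canonical genes alone the medians were 0.12 and 0.23. In fetuses the medians were 0.03 for 48 large-subunit and 0.07 for 28 small-subunit genes, a difference of -0.03 ± 0.01. With the mean over all measured probes of a gene that fetal difference was 0.00. The direction, small above large, was the same in mothers and fetuses, while its size was small beside the quartiles of the maternal members, 0.03 and 0.27.

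**Figure D3:**
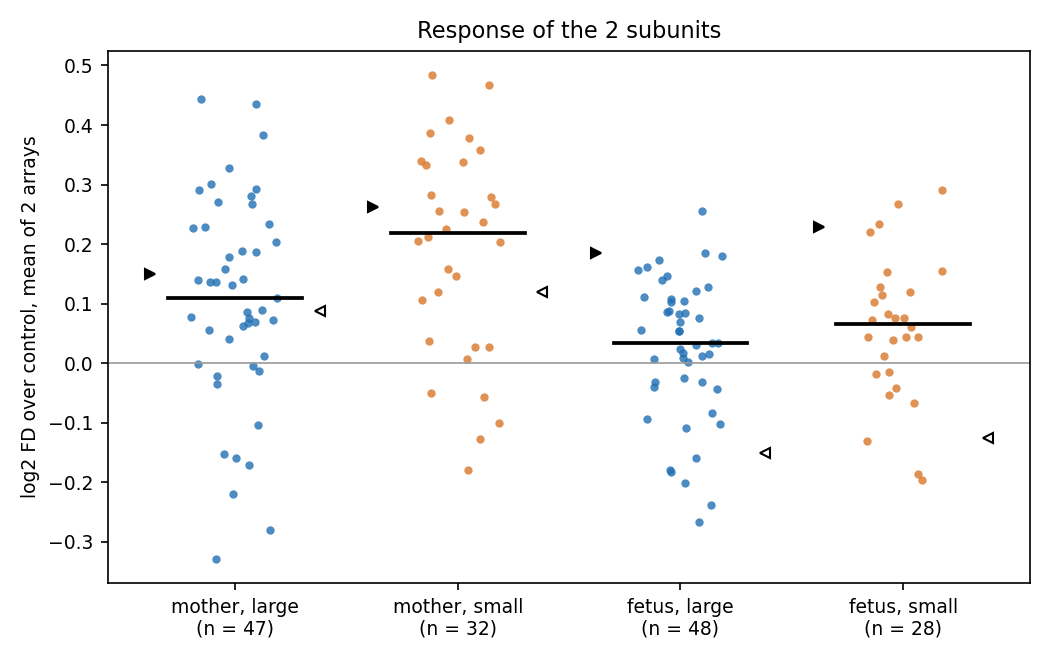
Log2 ratio of FD over control, mean of 2 arrays (y axis), of each large-subunit (blue) and small-subunit (orange) gene in mothers and fetuses. Black lines are medians, filled triangles the median on the array with FD in Cy5 and open triangles that on the array with FD in Cy3. The maternal medians are 0.11 and 0.22, and the fetal triangles lie on either side of 0.

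The maternal minus fetal difference of the members was small, and its direction depended on the array and on the normalisation. The median of the maternal minus fetal difference was 0.12 ± 0.17 over 73 members, against -0.02 over all 15247 genes. On arrays with FD in Cy5 it was -0.03, on arrays with FD in Cy3 0.22, and median centring instead of loess gave -0.25. Both array pairs were above 0 for 27 members, beside 35% of all genes, below 0 for 6, beside 42.1%, and on opposite sides for 40, beside 23%. No member passed the 2-fold rule, whereas 1.25% of all genes were higher and 1.79% lower. By the 1.2-fold rule 7 members were higher in mothers, beside 12.8% of all genes, and none was lower, beside 17.4%. They were Rps9, Rps24, Rps19, Rps27, Rpl22l1, Rps26 and Rpl23. Rps9 had maternal values of 0.34 and 0.63 and fetal values of -0.07 and 0.16, a difference of 0.44 ± 0.03. Rps24 had maternal values of 0.35 and 0.16 and fetal values of -0.24 and -0.13, a difference of 0.44 ± 0.21. Its dim probes did not all share the maternal direction, with a maternal range from -0.14 to 0.42. Rps19 had a difference of 0.37 ± 0.17, and the pairs of Rps9, Rps24 and Rps19 did not overlap between mothers and fetuses. These genes were named as among the 6 highest by this difference, which favours such a separation. Its share over all genes is not given. For 5 of the 67 members read by the same probe in both, the maternal arrays lay on one side of 0 and the fetal arrays on the other, beside 17.3% of all genes. At the low end, Rpl21 had -0.25 and -0.07 in mothers and 0.06 and 0.12 in fetuses, while its dimmer probe averaged 0.02 in mothers and -0.02 in fetuses. Rplp1 had a difference of -0.28 ± 0.36. Across 73 members the maternal and fetal means correlated at 0.50 (Pearson; Spearman 0.41), and the differences between the 2 arrays of each comparison at 0.62 (Spearman 0.53). The pairs share probes and dye orientation.

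The largest differences of the ribosomal proteins lay between the control livers of mothers and fetuses. Control channels in the same dye were set against each other after normalisation of intensities across arrays. The median log2 difference over 74 members was -0.71 ± 0.18, or 1.64-fold lower in mothers, with -0.60 in Cy3 and -0.85 in Cy5. Over all 17639 measured genes the median was 0.03, and over 1699 other genes of the brightest 10% it was 0.08. Both dyes were below 0 for 61 of 74 members, beside 42.5% of all genes, and above 0 for 3, beside 46.1%, with the dyes on opposite sides for 10, beside 11.4%. By the 2-fold rule 20 members were lower in mothers, beside 10.3% of all genes, and none was higher, beside 9.33%. By the 1.2-fold rule 53 were lower, beside 28.8%, and 3 were higher, beside 31%. The size depended on the scaling. With the scanner software's processed signals scaled at the 75th percentile of each channel, the member median was -0.15, while that of all genes was 0.16 and that of the other bright genes 0.66. With that scaling 4 members were 2-fold lower and 1 was 2-fold higher, and by the 1.2-fold rule 24 were lower and 17 higher. The shares of all genes above belong to the first scaling, and those for this one are not given. The members lay below all genes and below the other bright genes under either scaling.

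The lowest members held close values in both dyes. Rpl31, on chr1:39612807-39612866 in the build of the files (mm7), had control levels of 9.43 and 9.28 in mothers, against 11.12 and 11.07 in fetuses, a difference of -1.74 ± 0.07 (3.33-fold). Rps15a had 12.91 and 12.74 in mothers, against 14.39 and 14.51 in fetuses, a difference of -1.63 ± 0.20. Rps19 had 12.15 and 12.36 in mothers, against 13.71 and 14 in fetuses, a difference of -1.60 ± 0.06. On these probes the maternal and fetal levels were far apart beside the spread between dyes. Other measured probes gave -0.20 for Rps15a, -0.92 for Rps19 and -1.48 for Rpl31. The Rps15a probe at -0.20 is dim, and the range between the probes of Rps15a was the largest of any member here. Rplp0 had 11.82 and 11.61 in mothers, against 13.35 and 13.23 in fetuses, a difference of -1.57 ± 0.06. Rps26 and Rpl35 followed at -1.49 and -1.44 ± 0.14. Rps9, the highest responder of the maternal livers, was at -1.28 ± 0.09.

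Few members were higher in control mothers. Rpl21 had control levels of 11.24 and 10.74 in mothers, against 9.82 and 10.40 in fetuses, a difference of 0.88 ± 0.76. A dimmer probe of Rpl21 was at -0.31. Rps4x, from a dim probe, had 7.82 and 7.50 in mothers, against 6.86 and 7.15 in fetuses, a difference of 0.66 ± 0.43. Rps7, which also binds Mdm2, had 14.20 and 14.36 in mothers, against 13.90 and 13.86 in fetuses, a difference of 0.40 ± 0.14. For 7 members the dyes differed by over 1 on the log2 scale. Rpl24 gave -2.75 in Cy3 and 1.9 in Cy5, and Rps24 gave -2.14 and 0.68, so neither has a settled direction. Large-subunit and small-subunit genes had close medians, -0.70 and -0.72.

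**Figure D4:**
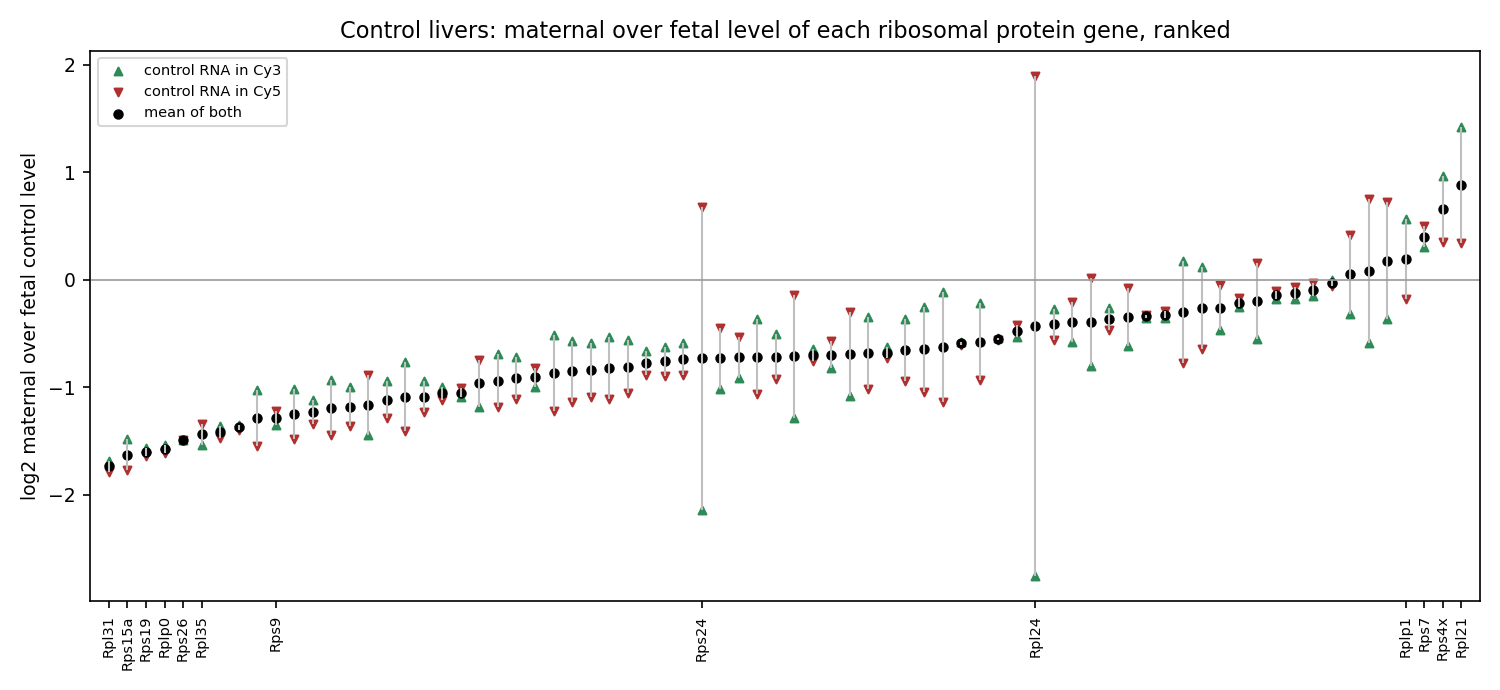
Log2 maternal over fetal control level (y axis) of 74 ribosomal protein genes ranked by their mean (x axis, labelled for genes described in the text). Green triangles are the values with control RNA in Cy3, red triangles those in Cy5 and black points their mean. From Rpl31 at -1.74 to Rpl21 at 0.88, 61 genes lie below 0 in both dyes on this scaling, and with scaling at the 75th percentile the median moves to -0.15.

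Markers of blood formation also differed between the control livers. All 20 erythroid genes of a list with globins, Gata1 and Klf1 were 2-fold lower in control mothers, beside 10.3% of all genes, with a median of -3.45. The summed linear level of the 20 genes in control channels was 41141 and 33952 in mothers, against 272223 and 307795 in fetuses. For 10 of the 20, among them Rhd and Kel, the maternal signal was not well above background, and the value is a bound. Among 16 hepatocyte genes the median was 0.39. By the 2-fold rule 4 were higher in mothers, beside 9.33% of all genes, and Afp, the fetal albumin, was lower, beside 10.3%. Both dyes were above 0 for 9 of the 16, beside 46.1% of all genes. They were below 0 for 5, beside 42.5%: Alb1, Ttr, Fga, Fgg and Afp. The part of erythroid cells in the ribosomal protein difference was not tested. Between FD and control fetuses, the erythroid median was -0.23, and 8 of the 20 fell by the 1.2-fold rule, beside 6.02% of all genes, while the summed level was 269938 and 220837 in FD fetuses, against 272223 and 307795 in control fetuses. In mothers the erythroid median was -0.06 over 10 genes. The hepatocyte medians of FD over control were 0.04 in mothers and 0.16 in fetuses, over 17 genes each.

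The genes around ribosome production gave a reading of the same pathway on dimmer spots. The biogenesis list holds nucleolar proteins and RNA polymerase I factors that process rRNA and assemble subunits. In mothers its median was 0.45 ± 0.11 over 34 genes, and 27 rose by the 1.2-fold rule, beside 12% of all genes, and none fell, beside 15.6%. With median centring none passed the rule, but that setting leaves the dye trend in place, and the share of all genes under it is not given. In fetuses its median was -0.09 ± 0.03 over 33 genes, with none higher, beside 7.75% of all genes, and 1 lower, beside 6.02%. Across the settings tried its maternal median lay between 0.36 and 0.64, and its fetal median lay between -0.13 and 0.10 and changed sign with median centring. Nucleolin (Ncl), the major nucleolar protein, had 0.73 and 1.12 in mothers and -0.26 and 0.17 in fetuses. Nol5, a box C/D ribonucleoprotein, had 0.93 and 0.69 in mothers and -0.17 and -0.33 in fetuses, and it passed the 2-fold rule for the maternal minus fetal difference (1.06), beside 1.25% of all genes.

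Translation factors and other non-ribosomal genes whose mRNAs are known to carry a TOP tract had a maternal median of 0.28 ± 0.07 over 12 genes, with 5 rising by the 1.2-fold rule, beside 12% of all genes, and none falling, beside 15.6%. Their fetal median was -0.04 ± 0.03, with 1 gene lower by the rule, beside 6.02% of all genes, and it was 0.23 with median centring, 0.05 with the mean over probes and 0.01 with RefSeq names. Npm1, a nucleolar chaperone, had 0.62 and 0.63 in mothers and 0.01 and -0.20 in fetuses, and Nap1l1, a histone chaperone, had 0.76 and 0.41 in mothers and -0.21 and -0.29 in fetuses. The mitochondrial ribosomal proteins, which serve a separate ribosome, had medians of -0.02 over 74 genes in mothers and 0.01 over 75 in fetuses. Cytosolic ribosomal proteins with another kind of symbol were few: Fau had 0.25 and 0.41 in mothers, and Rpsa had 0.01 and 0.12 in mothers and 0.04 and 0.14 in fetuses.

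Several genes that link nutrients to translation differed by more than any ribosomal protein, in both directions. Eif4ebp3, an inhibitor of cap-dependent translation, had 3.60 and 3.22 in mothers and 1.60 and 1.45 in fetuses. Ddit4, which restrains mTOR, had 0.97 and 1.06 in mothers and 1.23 and 1.42 in fetuses. Both rose past the 2-fold rule in mothers and in fetuses. Sesn2, an amino acid sensor upstream of mTOR, had 1.17 and 1.2 in mothers and 0.38 and 0.51 in fetuses. Myc, a transcription factor that drives ribosome production, had 1.31 and 1.07 in mothers and 0.18 and 0.13 in fetuses, so it rose past the 2-fold rule in mothers. Pdcd4, a repressor of translation, had -1.03 and -0.63 in mothers and -0.23 and -0.02 in fetuses. Of 18 genes on this list, 4 in mothers and 2 in fetuses rose past the 2-fold rule, beside 1.57% and 0.483% of all genes, and none fell by that rule. In mothers 9 of the 18 were above 0 on both arrays and 8 below.

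**Figure D5:**
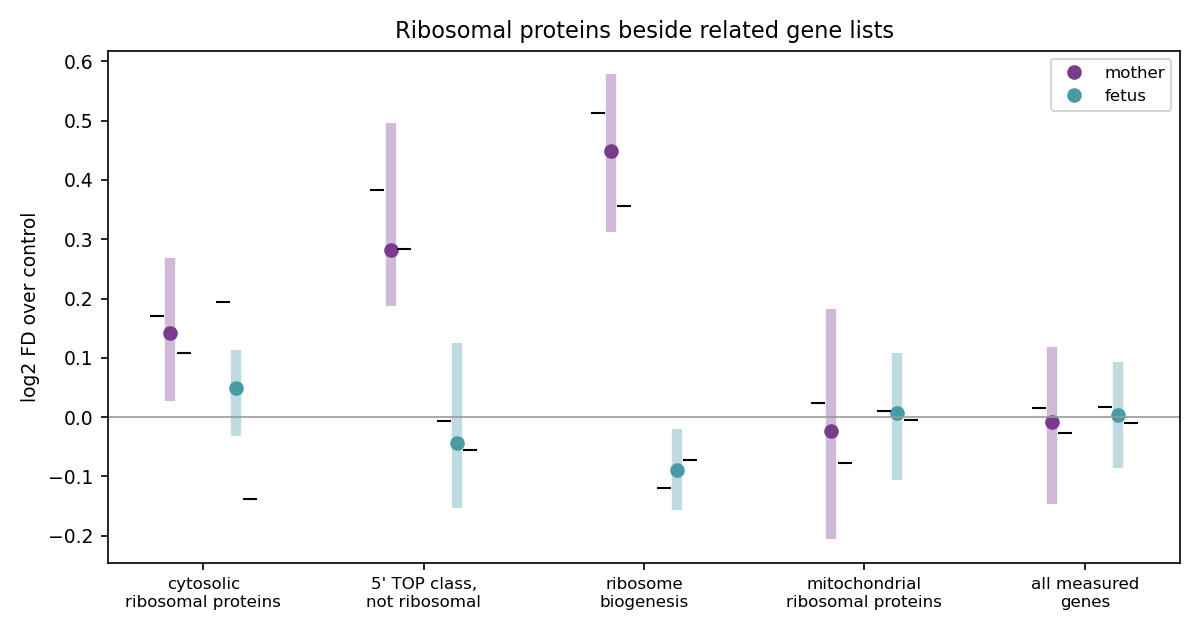
Log2 ratio of FD over control (y axis) of the ribosomal proteins, related gene lists and all measured genes (x axis), in mothers (purple) and fetuses (teal). Points are list medians, bars the quartiles and black ticks the medians on each array, FD in Cy5 left. Maternal medians are 0.14, 0.28 and 0.45 for ribosomal proteins, TOP-class and biogenesis genes, and the fetal medians of the TOP-class and biogenesis lists, -0.04 and -0.09, turn positive with median centring (the first also with the mean over probes and with RefSeq names).

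Several probes of a gene did not always give one answer. Of 35 members with over 1 measured probe, the probe means differed in sign for 7 in mothers and 15 in fetuses, and for 9 of 34 in the control comparison. The same share over all genes with several probes is not given, so these counts describe the members only. The median range between probes was 0.08 in mothers, 0.10 in fetuses and 0.54 between control livers. The probe means of Rps20 shared a sign but differed in size. Its bright probe read 0.11 and -0.03 in mothers and 0.35 and -0.15 in fetuses. A dim probe filed under its symbol read 0.86 and 0.42 in mothers and 0.67 and 0.27 in fetuses. Rps12 had 0.35 and -0.03 in mothers on its bright probe and 0.87 and 0.34 on a dim one. For Rps20 and Rps12 the dim probe had the larger maternal values, and the files give it another transcript accession than the bright probe. Rps25 went the other way and changed sign, with maternal means of 0.27 on its bright probe and -0.13 on a dim one.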

How the data were processed

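The deposited scanner files give, per the file headers, the mean intensity of each spot and its local background in both dyes, processed intensity, and a log10 ratio (red against green). The submitters' processing notes name Agilent Feature Extraction 9.5.3.1. The authors' series table is a score, a red over green ratio rounded to 2 decimals with a sign of unknown meaning, which was dropped (column medians -0.92, 0.94, -0.88 and 0.88); its scale and direction follow from a Pearson correlation of at least 0.9999 with the scanner values of the same spots.

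In R 4.3.3 with limma 3.58.1, intensities were corrected by normexp (offset 50) and loess with control spots at weight 0, then turned to FD over control on the log2 scale. Flagged spots were left out (215 to 257 gene spots per array), spots of a probe were averaged, and the brightest probe measured on both arrays stood for a gene. A probe was measured when 1 condition was well above background on both arrays, and between control livers when that held in mothers or in fetuses. Levels between arrays used Aquantile normalisation. Gene spots well above background made up 53.2% to 69.7% by array and channel, and the number of arrays limits the precision. Call rules are rules of size. Genes named are the 6 highest and 6 lowest members of each comparison, stalk genes, Rps6, paralogs with their parents, members whose probes disagree, and listed genes past the 2-fold rule; members named beyond these were chosen after their values were seen. Members and lists were chosen with earlier results of these data known. Of 113 member probes matched to RefSeq by accession, 111 carried the same symbol. The steps were tested on simulated data. Some genes that the naming rule selects are not reported here.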

Additional observations from a re-analysis of the deposited data

Results flagged for a closer look

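For 5 ribosomal protein genes and 2 gene lists, both maternal arrays lay on one side of 0 and both fetal arrays on the other; the difference was not tested. Among members this is 5 of 67, beside 17.3% of all genes. The maternal minus fetal difference was 0.26 for Rpl15, with 0.28 and 0.18 in mothers and -0.03 on each fetal array. It was -0.25 for Rpl21, whose dimmer probe averaged 0.02 in mothers and -0.02 in fetuses, and 0.30 for Rpl22l1. It was 0.18 for Rpl6, whose dimmer probe averaged 0.10 in mothers and 0.01 in fetuses. It was 0.44 for Rps24, of which 1 dim probe gave negative maternal values. The median difference was 0.33 for the non-ribosomal TOP-class genes and 0.50 for the ribosome biogenesis genes. With median centring the fetal medians of both lists turned positive, and the difference of the TOP-class genes was -0.07.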

How the results depend on the processing

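With median centring in place of loess, the member median was 0.336 in fetuses, 0.057 in mothers and -0.25 for the maternal minus fetal difference, and large minus small was -0.0112 in fetuses; this setting leaves the dye trend in bright spots, and it moved the fetal median of all genes to 0.10 and that of the difference to -0.11. With processed signals at the 75th percentile, the control level median of the members was -0.15. The mean over measured probes put large minus small in fetuses at -0.000361. Without replicate 1 or 2, the member medians ranged from -0.14 to 0.19 in fetuses, 0.11 to 0.17 in mothers, -0.03 to 0.22 for the difference and -0.85 to -0.60 for control levels, and large minus small ranged from -0.04 to -0.03 in fetuses and -0.11 to -0.0322 in mothers. Single arrays called 33 (FD in Cy5) and 0 (FD in Cy3) fetal members higher and 1 and 17 lower by the 1.2-fold rule. The shares of all genes given in the text apply the rule to both arrays, so single-array counts have no such share beside them. The maternal count of 16 higher became 29 with FD in Cy5 alone and 0 with median centring, and that of 2 lower became 4 with FD in Cy3 alone and 0 with median centring or the mean over probes. By the scanner software's log ratio, 1 fetal member passed the 2-fold rule as higher, and genes past it numbered 227 higher and 171 lower in fetuses (85 and 48 by the settings of the text) and 644 and 805 in mothers (248 and 303). The other settings moved the 6 medians by less than the SD between arrays. No paired analysis was possible because each comparison was counted as 1 replicate and its values come from no test. The stricter filter on signal leaves out the dim probe behind the fetal call of Rps6.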
